A study of Mus musculus with 9 samples.

Results

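The comparison of HFD+Abx with HFD intestinal tumours of mice rests on 6 of the 9 one-colour arrays of the series, the 3 titled HFD+Abx-1 to HFD+Abx-3 and the 3 titled HFD-1 to HFD-3. HFD is a high-fat diet in the design text of the series, and Abx, which no label explains, is used in that form. The HFD+Abx group thus carries the high-fat diet of the HFD group with Abx added. The tissue of all arrays is labelled as intestinal tumours. The strain, age and sex of the mice, the way the tumours arose, the dose and length of either treatment and whether an array holds 1 animal are not given in the sources used here. The p-values below therefore measure the spread between these arrays, part of which may be technical. The series sets the comparison within the question of whether gut microbes under a high-fat diet alter circular RNAs in colorectal cancer. In the main fits the 3 CTR arrays entered only the estimate of the spread, unless their values are named. Among the alternatives, quantile normalisation and a filter counted over all 9 arrays also drew on them.

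Circular RNAs (circRNAs) are made when the spliceosome joins the end of an exon back to the start of the same or an upstream exon of the same transcript. The closed loop has no free end, so exonucleases such as RNase R, which was used here to remove linear RNA, leave it largely intact. CircRNAs are long-lived, and some of them bind microRNAs or RNA-binding proteins. In colorectal tumours circRNAs have been described as less abundant than in normal mucosa and less abundant in proliferating cells.

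Of 14236 circRNA probes on the array, 2242 (15.7%) were brighter than every probe named as negative on all 6 arrays and were kept. Another 10405 passed this mark on none of the 6 arrays, 1538 passed it on 1 to 5 arrays, and 51 had an outlier spot on at least 1 array and were left out. On each array the mark was set by the same probe, the brightest of 15 negative probes. Its level was 0.72 on HFD 1, 0.40 on HFD 2 and 0.02 on HFD 3, and it was 0.24, 0.27 and 0.28 on HFD+Abx 1, 2 and 3. A level here is the log2 of the processed signal, from which the 75th percentile of the circRNA probes on that array was subtracted. The mark was thus highest on HFD 1, and of the 396 probes that missed it on only 1 array, 331 missed it on HFD 1. The number of circRNA probes above the mark was 2387, 2872 and 3533 on the HFD arrays and 3173, 3123 and 3077 on the HFD+Abx arrays. The HFD+Abx arrays lay within the range of the HFD arrays, and the means differed by 194 (two-sided exact permutation p = 0.70, n = 3 per group). The files do not pair circRNA probe IDs with host genes, circRNA names or sequences, so at most 2 IDs are printed for each direction.

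Arrays of the same scan identifier were taken to share a slide. Slide 1 then holds HFD 1 to 3 with HFD+Abx 1, and slide 2 holds HFD+Abx 2 and 3. The 75th percentile signal before scaling was 105, 95.3 and 106 on HFD 1, 2 and 3 and 119, 121 and 114 on HFD+Abx 1, 2 and 3. These did not overlap between groups (two-sided exact permutation p = 0.10, which no set of 3 against 3 can go below). The part of this overall brightness in the differences below was not tested. After scaling, the median level of the kept circRNAs was 1.94 to 2.10 on the HFD arrays and 2.01 to 2.10 on the HFD+Abx arrays, which overlapped.

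The 6 arrays were first set against each other by counting the kept circRNAs that differed at least 2-fold between 2 arrays. Within HFD this number was 57 for HFD 1 and 2, 79 for HFD 1 and 3 and 121 for HFD 2 and 3. Within HFD+Abx it was 64 for arrays 1 and 2, 97 for arrays 2 and 3 and 178 for arrays 1 and 3. Between the groups it ran from 32 to 227 with a median of 106 over 9 pairs. Both extremes were pairs across the groups. HFD 3 and HFD+Abx 1 were the most alike of all 15 pairs, with 32 circRNAs at least 2-fold apart, and HFD 3 and HFD+Abx 3 the least alike, with 227. By this count HFD 2 and HFD+Abx 3 came next in likeness, with 52. By median absolute difference and by correlation, HFD 1 and 2 came next instead. The median absolute difference was 0.19 for HFD 1 and 2 and 0.23 for HFD 2 and HFD+Abx 3 (r 0.978 and 0.970). The position code of each array was taken to give its column and then its row. HFD 3 and HFD+Abx 1 then lie in neighbouring positions of slide 1, column 2, rows 2 and 3. HFD 2 and HFD+Abx 3, by contrast, lie on different slides. Other neighbours were HFD 2 and 3 on slide 1, with 121, and HFD+Abx 2 and 3 on slide 2, with 97. The part of position was not tested.

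**Figure D1:**
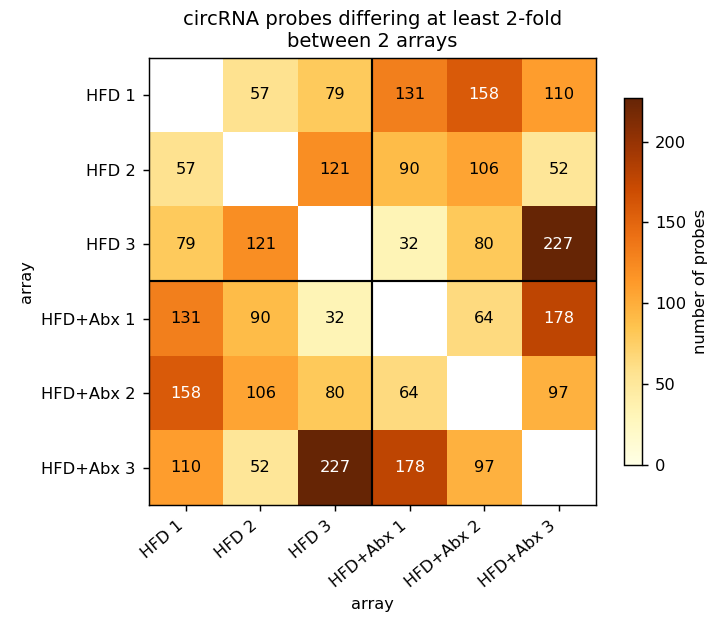
Number of kept circRNA probes, of 2242, that differed at least 2-fold between each pair of the 6 arrays, with a line between the HFD and HFD+Abx arrays. The lowest count (32, HFD 3 and HFD+Abx 1) and the highest (227, HFD 3 and HFD+Abx 3) both lie across the groups.

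The same picture came from principal components over the kept circRNAs. The first component held 47.2% of the variance and placed HFD 3, HFD+Abx 1 and HFD+Abx 2 at 12.7, 11.3 and 5.18, against -5.17, -9.56 and -14.4 for HFD 1, HFD 2 and HFD+Abx 3. It thus did not follow the groups. The second, with 28.2%, placed the HFD arrays at 12.5, 3.45 and 3.43, HFD+Abx 1 at 0.35, and HFD+Abx 2 and 3 at -11.9 and -7.77. On this component the groups did not overlap, with HFD+Abx 1 next to HFD 2 and 3 and the arrays of slide 2 farther away, so that the groups and the slides cannot be told apart for HFD+Abx 2 and 3. The median SD of a circRNA was 0.23 among the HFD arrays and 0.26 among the HFD+Abx arrays, and it was larger in HFD+Abx for 56.0% of circRNAs.

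HFD+Abx was then compared with HFD. No kept circRNA passed an adjusted p of 0.05 (0 of 2242, or 0%, limma with Benjamini-Hochberg adjustment, lowest adjusted p = 0.91). Before adjustment 101 circRNAs (4.5%) had a p under 0.05, 60 higher (2.68%) and 41 lower (1.83%) in HFD+Abx. A difference of 1.5-fold or more was also met by 62 of them (2.77%), with 31 higher (1.38%) and 31 lower (1.38%). That even split depended on the scaling. It was 44 higher and 22 lower with equal array medians, which moved the median difference over the kept circRNAs from -0.0058 to 0.061, and 29 and 15 with normexp background correction. The 62 became 128 without HFD+Abx 1, 31 without HFD+Abx 2, 37 without HFD 1 and 94 without HFD 3. With array order unrelated to group, 3 arrays against 3 would not overlap with a probability of 0.1 for each circRNA. Groups did not overlap for 173 circRNAs (7.72%), 97 higher (4.33%) and 76 lower (3.39%). Here the majority turned with the processing, to 77 higher and 113 lower with quantile normalisation and 79 and 126 with the authors' deposited table, whereas it was 126 and 42 with equal medians and 144 and 58 with normexp.

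Most differences were small. In bulk tumour RNA, fewer cells of a type and less circRNA per cell cannot be told apart. The 25th and 75th percentiles of the 2242 fitted differences were -0.18 and 0.15, and 90% lay between -0.49 and 0.44. Only 13 reached 2-fold in fitted mean, 2 of them higher and 11 lower in HFD+Abx, and 115 reached 1.5-fold. The median SE was 0.21. For 1884 circRNAs (84.0%) the unadjusted 95% interval of the difference left out a 2-fold change either way, and for 825 (36.8%) it left out a 1.5-fold change. With the kept circRNAs in 4 bins by mean level, the numbers meeting the unadjusted criterion were 3 higher and 6 lower among the dimmest 561, 14 and 8 in the next bin, 6 and 7 in the third and 8 and 10 among the brightest 561. The circRNA with the brightest probe, at a mean level of 10.3 in HFD, differed by 0.19 (SE 0.18, adjusted p = 0.91 in limma).

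**Figure D2:**
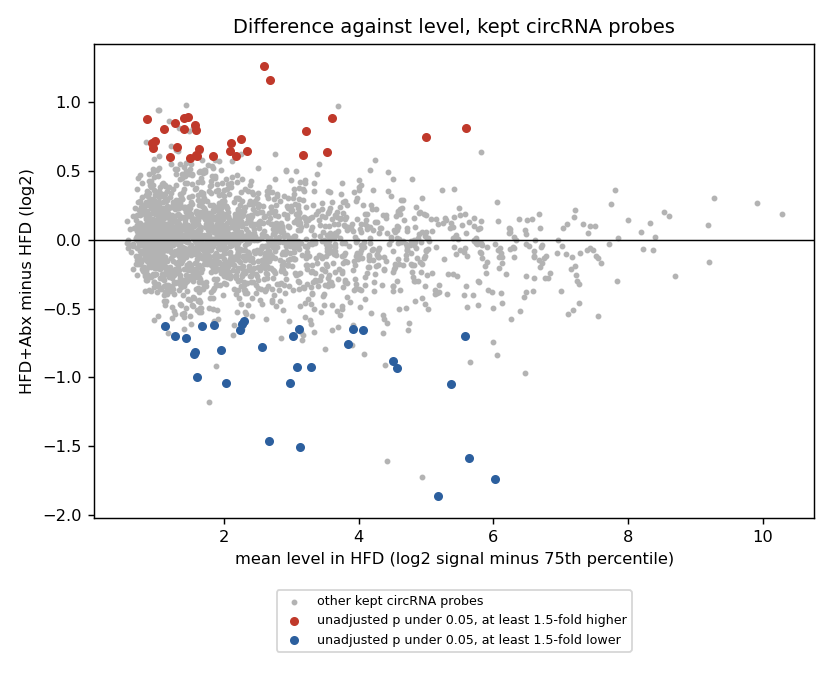
Fitted HFD+Abx minus HFD difference (log2) of each of the 2242 kept circRNA probes against its mean level in HFD (log2 signal minus 75th percentile). Coloured points are the 31 higher and 31 lower circRNAs with both an unadjusted p under 0.05 and 1.5-fold or more, and none passed the adjusted threshold.

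Single circRNAs were named where the unadjusted p was under 0.05 and the arrays of the groups did not overlap. Of the 2242 kept circRNAs, 46 met this as higher and 21 as lower in HFD+Abx. The 12 with the largest positive difference were higher by 0.70 to 1.27 (SE 0.19 to 0.50) and the 12 with the largest negative one lower, by -1.86 to -0.63 (SE 0.20 to 0.77). All 24 had an adjusted p of 0.91 in limma. The distance between the groups, from the nearest HFD array to the nearest HFD+Abx array, was 0.037 to 0.50 for the first set and 0.076 to 0.53 for the second. HFD+Abx 1 was the HFD+Abx array nearest to HFD for 9 of the 12 higher and 10 of the 12 lower circRNAs. The mean of the CTR arrays lay between the means of HFD and HFD+Abx for 8 of the higher and 4 of the lower.

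The largest positive difference was that of ASCRP4009949. Its level was 2.26, 2.44 and 3.10 on HFD 1, 2 and 3 and 3.31, 4.47 and 3.82 on HFD+Abx 1, 2 and 3. HFD+Abx 2 was the highest array and HFD+Abx 1 only 0.21 above HFD 3. The means were 2.60 ± 0.44 in HFD and 3.87 ± 0.58 in HFD+Abx (SD, n = 3). The groups thus differed by 1.27 (SE 0.44, 95% interval 0.29 to 2.24), or 2.40-fold (adjusted p = 0.91 in limma). ASCRP4003652 followed with 2.26, 2.55 and 3.23 on the HFD arrays and 3.51, 4.54 and 3.47 on the HFD+Abx arrays. Its groups were 0.24 apart, and the difference was 1.16 (SE 0.50, 95% interval 0.058 to 2.26, adjusted p = 0.91 in limma). The spread within CTR was larger than that within HFD for both, with 2.05, 3.53 and 1.93 on CTR 1, 2 and 3 for ASCRP4009949 and 1.99, 3.74 and 1.84 for ASCRP4003652. CTR 2 thus lay above all 3 HFD arrays for both circRNAs.

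ASCRP4008180 had the largest negative difference. Its level was 6.08, 5.12 and 4.32 on HFD 1, 2 and 3 and 4.0, 2.39 and 3.54 on HFD+Abx 1, 2 and 3. The HFD arrays themselves spanned more than the 0.32 between HFD 3 and HFD+Abx 1. The means were 5.17 ± 0.88 in HFD and 3.31 ± 0.83 in HFD+Abx (SD, n = 3). The groups thus differed by -1.86 (SE 0.77, 95% interval -3.58 to -0.15, adjusted p = 0.91 in limma). ASCRP4000534 had the 6 arrays in the same order, with 6.79, 6.07 and 5.22 in HFD and 5.01, 3.45 and 4.42 in HFD+Abx. It differed by -1.74 (SE 0.73, 95% interval -3.36 to -0.11, adjusted p = 0.91 in limma). On CTR 1, 2 and 3 ASCRP4008180 stood at 6.56, 3.55 and 6.44 and ASCRP4000534 at 7.45, 4.52 and 7.27, so CTR 2 again lay on the side of the HFD+Abx arrays.

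**Figure D3:**
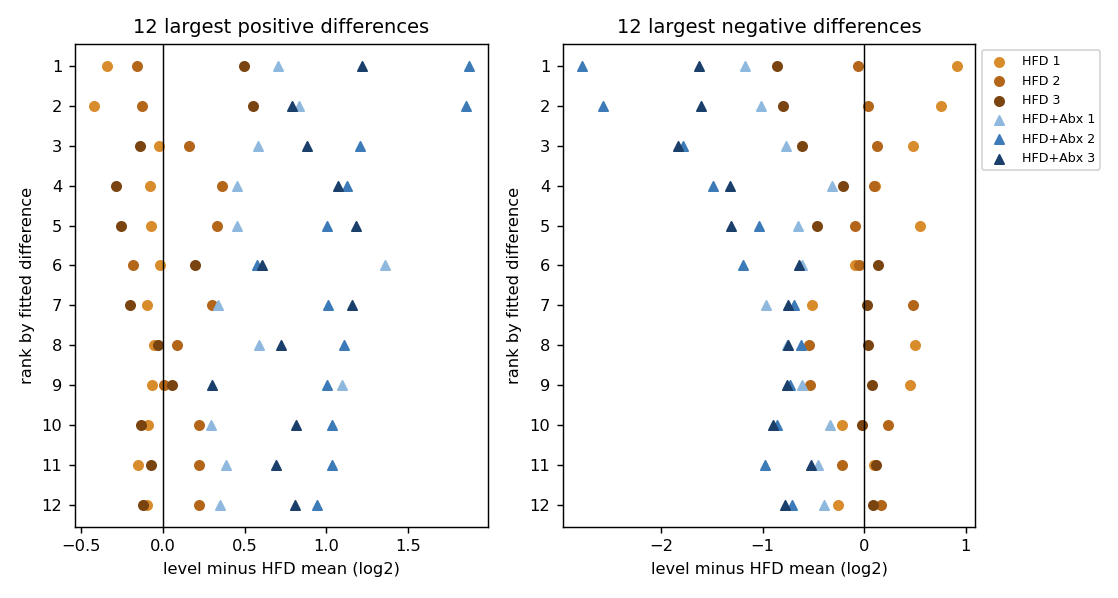
Level of the 12 circRNAs with the largest positive (left) and negative (right) difference on each of the 6 arrays, minus the HFD mean (log2), with circles for HFD and triangles for HFD+Abx arrays. HFD+Abx 1 was the HFD+Abx array nearest to HFD in 9 rows on the left and 10 on the right.

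Because HFD+Abx 2 and 3 are on another slide, HFD+Abx 1 was compared separately with the HFD arrays on slide 1. This uses a lone HFD+Abx array, which was assumed to vary like the other groups. No circRNA passed the adjusted threshold in limma (0 of 2242, or 0%, smallest adjusted p = 0.084), and 58 (2.59%) had an unadjusted p under 0.05, 53 higher (2.36%) and 5 lower (0.223%). The 1.5-fold criterion was met by 57 (2.54%), 53 higher (2.36%) and 4 lower (0.178%) on HFD+Abx 1. Quantile normalisation turned this into 51 and 12, and it was 49 and 13 with the authors' deposited table. It rested in part on HFD 2 and HFD 3, being 45 higher and 35 lower without HFD 2 and 65 and 49 without HFD 3. The arrays of slide 2, HFD+Abx 2 and 3, set against the same HFD arrays, gave no call (0%, smallest adjusted p = 0.25 in limma), 214 circRNAs with an unadjusted p under 0.05 (9.55%, of which 107 higher, 4.77%, and 107 lower, 4.77%) and 128 that also reached 1.5-fold (5.71%). Of the 128, 57 were higher (2.54%) and 71 lower (3.17%), a split that was 85 and 42 with equal medians and 58 and 49 with normexp. Both comparisons share the HFD arrays, and the second cannot be told apart from a difference between slides.

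The 4 named circRNAs had the same sign in both comparisons, as the rule that picked them requires. ASCRP4009949 differed by 0.71 (SE 0.62) on HFD+Abx 1 and by 1.55 (SE 0.48) on HFD+Abx 2 and 3, and ASCRP4003652 by 0.83 (SE 0.72) and 1.32 (SE 0.57). ASCRP4008180 differed by -1.17 (SE 1.15) and -2.21 (SE 0.88), and ASCRP4000534 by -1.02 (SE 1.09) and -2.09 (SE 0.83). None of these 4 differences on HFD+Abx 1 had an unadjusted p below 0.28 in limma.

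Each HFD+Abx array was also set against the range of the HFD arrays. HFD+Abx 1 lay inside it for 1367 circRNAs, above all HFD arrays for 378 (16.9%) and below all of them for 497 (22.2%). HFD+Abx 2 lay above for 624 (27.8%) and below for 577 (25.7%), and HFD+Abx 3 above for 597 (26.6%) and below for 686 (30.6%). HFD+Abx 1 thus stayed within the HFD range more often than either array of slide 2. The large deviations ran otherwise. HFD+Abx 1 was at least 2-fold above the highest HFD array for 23 circRNAs and at least 2-fold below the lowest for 0, against 7 and 11 on HFD+Abx 2 and 3 and 7 on HFD+Abx 3.

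**Figure D4:**
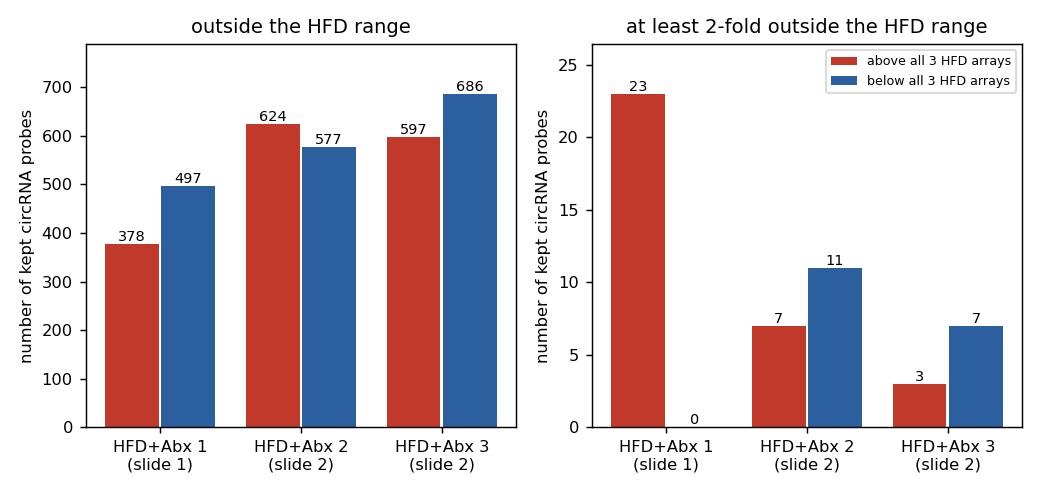
Number of the 2242 kept circRNA probes above all 3 or below all 3 HFD arrays on each HFD+Abx array (left), and at least 2-fold outside the HFD range (right). HFD+Abx 1 has the fewest outside the range but the most at least 2-fold above it, 23 against 7 and 3.

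These 23 circRNAs were chosen on HFD+Abx 1 and HFD after their values were seen, so their levels there are a description. They lay low among the kept circRNAs, at mean levels of 0.85 to 2.11 in HFD. HFD+Abx 1 was 1.04 to 2.09 above the highest HFD array (median 1.29), was the highest of the 6 arrays for all 23 and lay above every CTR array for all 23. The HFD arrays differed among themselves too, with HFD 2 the lowest of them for 21 of the 23 and a median SD of 0.52 against 0.23 over all kept circRNAs. On the other HFD+Abx arrays, which took no part in the choice, 9 of the 23 were above all HFD arrays on HFD+Abx 2 and 4 on HFD+Abx 3. Over all kept circRNAs these shares were 27.8% and 26.6%. The median difference from the HFD mean was 1.74 on HFD+Abx 1, 0.42 on HFD+Abx 2 and -0.25 on HFD+Abx 3. The group was thus high on a lone array and not on all arrays of HFD+Abx. The circRNA with the largest of these differences stood at 1.71, 0.64 and 1.95 on HFD 1, 2 and 3 and at 4.01, 2.16 and 1.07 on HFD+Abx 1, 2 and 3. In another of the 23, HFD+Abx 1 stood at 2.72 while the other 8 arrays, CTR included, lay between 0.70 and 1.01. Its difference on that array was 1.88 (SE 0.22, adjusted p = 0.084 in limma on slide 1 alone). A fit with slide as a block takes its difference from HFD+Abx 1 alone as well, since slide 2 holds no HFD array. It gave the same 1.88 with an adjusted p of 0.028 in limma, which is no separate test of the 3 HFD+Abx arrays. Over all 3 HFD+Abx arrays the difference was 0.71 (SE 0.40, adjusted p = 0.91 in limma).

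**Figure D5:**
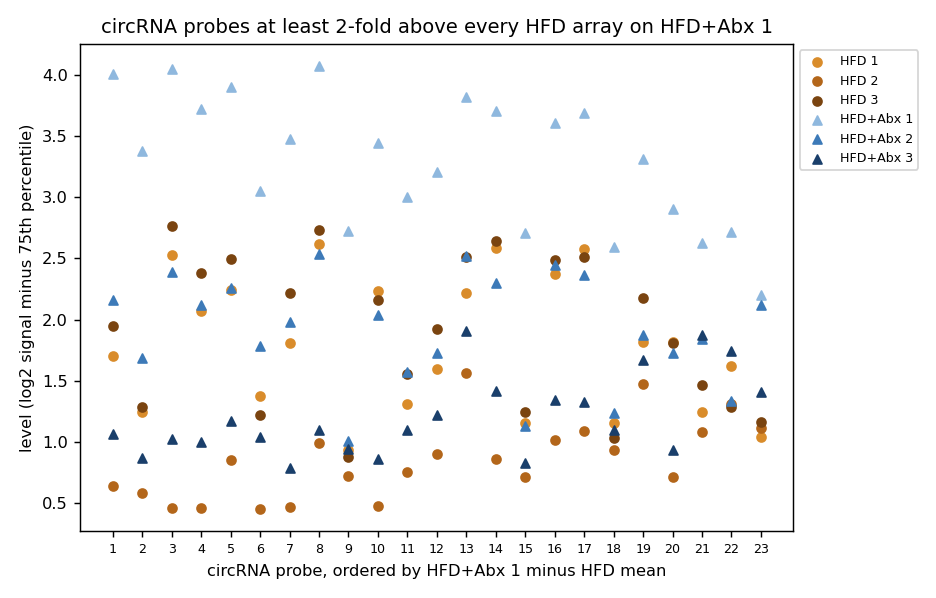
Level (log2 signal minus 75th percentile) of the 23 circRNAs at least 2-fold above every HFD array on HFD+Abx 1, on each of the 6 arrays, with circles for HFD and triangles for HFD+Abx. HFD+Abx 1 is above every HFD array for all 23 by the way they were chosen. HFD+Abx 1 is also the highest of the 6 arrays for all 23. Only 7 circRNAs on HFD+Abx 2 and 3 on HFD+Abx 3 lay that far above HFD, so the choice itself made that rank likely. HFD 2 is the lowest HFD array for 21.

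The requirement of all 6 bright arrays removes circRNAs that fall below the mark in one group. Of the probes it removed, 7 were above the mark on all HFD+Abx arrays and on no HFD array, and 3 on all HFD arrays and no HFD+Abx array. These 10 were picked by the pattern, so they are described without a test, and levels below the mark are not measured precisely. Because the mark differed between arrays, the pattern does not keep the groups apart, and for some of the 10 they overlapped. In one of the 7, HFD 2 stood at 0.39 and HFD+Abx 1 at 0.35. In one of the 3, HFD 3 stood at 0.04 and HFD+Abx 2 at 0.22. Another of the 3 stood at 1.70, 0.96 and 0.18 on HFD 1, 2 and 3 and at -0.14, -1.46 and -0.69 on HFD+Abx 1, 2 and 3. Its arrays had the order of those of ASCRP4008180, whose ID number is the next one after its own.

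The arrays also carry 50 mRNA probes with 10 spots each, of which 44 matched a gene symbol through their transcript accession. By the same mark, 12 were brighter than every negative probe on all 6 arrays, 33 on none and 5 on some. None of the 50 passed in HFD+Abx vs HFD when fitted with the kept circRNAs (0 of 50 in limma, smallest adjusted p = 0.84). An unadjusted p under 0.05 in limma was met by 3 of the 50, of which only 1 was among the 12 bright probes. It was met by 4.5% of the kept circRNAs, all of which were bright. Among the 12 bright probes, differences ran from -0.36 to 0.50, and 7 were higher in HFD+Abx. Pex11a, which encodes a membrane protein of peroxisomes, stood at 3.09, 2.85 and 2.87 on the HFD arrays and at 2.80, 2.36 and 2.56 on the HFD+Abx arrays. These did not overlap, and the difference was -0.36 (SE 0.18, adjusted p = 0.89 in limma). H2-Q7, a nonclassical MHC class I gene with near-identical relatives, stood at 3.09, 4.30 and 2.93 in HFD and at 3.81, 4.17 and 3.67 in HFD+Abx, with overlapping groups (difference 0.45, SE 0.32). Chgb, which encodes chromogranin B of secretory granules in endocrine cells, differed by 0.22 (SE 0.24). Gamt, an enzyme of creatine synthesis, differed by 0.10 (SE 0.16) and the homeobox gene Lhx1 by 0.01 (SE 0.17). The olfactory receptor genes Olfr166 and Olfr1307 differed by 0.05 (SE 0.18) and -0.29 (SE 0.20). The redox genes Prdx2 and Duox1 differed by -0.28 (SE 0.21) and -0.13 (SE 0.23), and Apoe, which encodes a lipoprotein component, by -0.04 (SE 0.17). Ppara, Acaa2 and Gsta4 were below the mark on all 6 arrays, so no difference is given for them. The remaining bright mRNA probe, without a matched symbol, was higher on each HFD+Abx array than on each HFD array (difference 0.50, SE 0.18, adjusted p = 0.84 in limma).

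The 14 probes named as circRNA controls were measured on 10 spots each, with a median SD between spots of 0.041. Their median level was 0.59, 0.57 and 0.44 on HFD 1, 2 and 3 and 0.22, 0.42 and 0.84 on HFD+Abx 1, 2 and 3. HFD+Abx 3 was the highest of the 6 arrays for 10 of the 14. Differences between HFD+Abx and HFD ran from -0.46 to 0.52, and none passed (smallest adjusted p = 0.89 in limma). The SD of these medians was 0.082 between the HFD arrays and 0.32 between the HFD+Abx arrays, and its part in the circRNA differences was not tested.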

How the data were processed

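Total RNA was digested with RNase R, amplified from random primers and carried the dye Cy3, per the labels' protocols. The authors deposited 1 scanner table for each array, in which every spot has an intensity. Version 11.0.1.1 of Agilent Feature Extraction wrote it, per the file headers. A second deposited table holds 14218 circRNA probes on the log2 scale. The second table followed the scanner's log2 median signal (column medians 5.80 to 5.82); how it was normalised is not stated, and it served as an alternative. Here, outlier spots were left out (3 to 19 circRNA spots on the 6 arrays), log2 processed signals of one probe were averaged, and the 75th percentile of the circRNA probes on each array was subtracted. No spot was saturated. The median ratio of a spot to its local background was 3.92 to 4.67. Group means were fitted over all 9 arrays in limma 3.58.1 (lmFit, then eBayes; R 4.3.3), on the kept probes, with Benjamini-Hochberg adjustment. The code was tested on simulated data. Named circRNAs are the 2 largest differences each way, and those described by range the 12 largest, at an unadjusted p under 0.05 without overlap. The comparison, the filter and the lists were chosen with earlier results of these data known. Gene names of mRNA probes came from a RefSeq table of GRCm38.p6. None of the genes in lists of branched-chain amino acid (9), Wnt (9), microbe sensing (9), circRNA host (10) and cell type marker genes (23) had a named probe, so the labelled tissue could not be checked against markers. The number of arrays limits the precision.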

Additional observations from a re-analysis of the deposited data

How the results depend on the processing

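No circRNA passed the adjusted threshold of limma in HFD+Abx vs HFD under any alternative or with any array left out, except 1 with slide as a block. That block rests on HFD+Abx-1 alone, as slide 2 holds no HFD array, and gave 50 circRNAs higher and 5 lower at the unadjusted criterion. Position column as a block equals leaving out HFD 1, the only one of the 6 arrays in its column, and 37 met the criterion (16 lower). Adjusted p of the 4 named circRNAs ran from 0.37 to 0.9998 in limma, and their sign could not turn when 1 array was left out, since they were chosen without overlap. Without the filter on dim probes, 651 of 14185 circRNAs met the criterion (162 higher, 489 lower), against 62 of 2242 in the main setting. When a probe had to be well above background on 3 or more of 9 arrays, 606 of 13506 did (156 and 450). When 3 bright arrays of 6 were enough, 50 of 3140 were higher, and with normexp 15 of 2242 were lower. For HFD+Abx-1 alone these filters gave 401 (256 and 145, 1 called), 346 (227 and 119, 1 called) and 113 (107 higher). The lower ones numbered 12 with quantile normalisation, 1 with equal medians or normexp and 13 with the authors' deposited table, and normexp gave 2 calls. For HFD+Abx-2 and -3 the filters gave 1454 (367 and 1087, 1 called), 1377 (361 and 1016, 2 called) and 106 higher, and equal medians 42 lower. Groups did not overlap for 1795 of 14185, 1733 of 13506 and 314 of 3140 circRNAs under the 3 filters, against 173 of 2242 in the main setting. The same totals hold for the filter counts of the other comparisons. The wider filters admit dim probes by construction.

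With 1 array left out at a time, the criterion was met by 31 to 128 circRNAs (14 to 57 higher, 16 to 71 lower). For HFD+Abx-1 alone it was met by 50 to 114 (44 to 65 higher, 2 to 49 lower), and for HFD+Abx-2 and -3 by 94 to 175 (51 to 87 higher, 43 to 114 lower). Groups of fewer arrays did not overlap for 213 to 593 circRNAs, as fewer arrays overlap less often. Leave-outs for these last 3 results and the counts of circRNAs 2-fold outside the HFD range were chosen after seeing the data. The latter were 20 to 23 above and 0 below on HFD+Abx-1 under the normalisations tried. The excess of bright circRNA probes in HFD+Abx, 194, became -197 by the scanner's flag for well above background (both exact permutation p = 0.70). Normexp used the median spot signal. With a replicate block 0 circRNAs passed and 74 met the criterion (70 on the 6 arrays only). Deviations of same-numbered arrays correlated at -0.09, -0.15 and -0.66, and those of pairs with different numbers at -0.54 to 0.56. With 3 arrays a group, these values cannot decide whether a shared number marks a pairing.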
